A study of Mus musculus with 8 samples.

Results

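The 1864 H3K27me3 peaks described here were listed by the authors in E2f3-null mouse embryonic fibroblasts and shared no base with any H3K27me3 peak listed in wild-type fibroblasts. They were 26.8% of the 6958 H3K27me3 peaks of E2f3-null cells on chromosomes 1 to 19, and are called null-only peaks below. They were chosen by the authors' calls on both H3K27me3 libraries: each peak had to be high enough to be listed in E2f3-null cells and not high enough to be listed in wild-type cells. All values of these 2 libraries at the null-only peaks are therefore a description of what the choice selected. The E2F3, HELLS and IgG reads played no part in it.

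Chromatin immunoprecipitation followed by sequencing was done on fibroblasts derived from embryos at E13.5. The groups used here were E2f3-/- cells with antibodies against H3K27me3, E2F3 or HELLS, and wild-type cells with the same 3 antibodies, each as 1 library. IgG is a nonspecific antibody whose reads give the background, and 1 IgG library was used for both genotypes because the 2 deposited read files were identical. The labels name no further allele, transgene or treatment, do not say how many embryos gave the cells, and describe no RNA measurement, so the labelled cell type was not checked against expressed markers. With 1 library a group there was no replicate, no test between genotypes was possible, and intervals below are 95% intervals of counting error alone.

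H3K27me3 is trimethylation of lysine 27 on histone H3, placed by Polycomb repressive complex 2 and found at silenced developmental genes and across broad silent stretches. E2F3 is a transcription factor that binds promoters of genes needed for DNA replication and the cell cycle. HELLS is a SNF2-family chromatin remodeler known for its role in DNA methylation and in keeping repeats silent. The study set these 3 maps side by side with and without E2f3.

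The libraries held between 3799779 and 7219419 distinct reads, with 3799779 for H3K27me3 in E2f3-null cells and 5640555 in wild-type cells. Ratios between genotypes were scaled by the reads outside all peaks of the series, which multiplied the E2f3-null H3K27me3 count by 1.34 against the wild-type one. Across the 3985 H3K27me3 regions listed in both genotypes, the log2 ratio, E2f3-null over wild type, had a median of -1.02 on this scale. Over all 18149 merged regions it was -1.19, so the null-only peaks stood within a map that was lower in E2f3-null cells. The E2F3 antibody gave 3314 listed peaks in E2f3-null cells and 8889 in wild-type cells, and its reads in E2f3-null cells come from a genotype without the gene.

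Null-only peaks were small. A typical one was 407 bp long (median; range 144 to 1250 bp) and held 8 reads of the E2f3-null H3K27me3 library, with quartiles of 7 and 10 and a range of 6 to 36. Of the 1864, 1424 held 10 or fewer such reads and 25 held 20 or more. The authors' score, which is 10 times the negative log10 of the peak caller's p-value, had a median of 60.5 with quartiles of 55.9 and 69.4, close above the caller's limit. E2f3-null peaks that were also listed in wild-type cells had a median score of 90.4, a median length of 729 bp and a median of 20 reads. The false discovery rate that the authors' table gives each peak was above 5% for 1742 null-only peaks (93.5%), against 54.6% of the E2f3-null peaks also listed in wild-type cells. Among those of score under 100 it was 96.0%. Within the E2f3-null list the rate followed the score, and was above 5% at 100% of null-only and of shared peaks that scored under 80. It therefore cannot show whether null-only peaks differed from shared ones of like score. Of wild-type-only peaks, called against their own control, the share above 5% was 0%, also at scores under 100. The null-only list was thus made mostly of low-scoring peaks, and where other kinds of H3K27me3 peak are set beside it below, those that scored under 100 are mostly used. The null-only side keeps its 102 peaks of 100 or more.

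Wild-type cells were not without the mark at these places. The wild-type H3K27me3 library had a median of 5 reads per null-only peak, with quartiles of 3 and 7 and a range of 0 to 55, and no read at 60 peaks (3.22%). Summed over all 1864 peaks and set against the mean density outside peaks, H3K27me3 reads were 15.8 times the background in E2f3-null cells and 6.86 times in wild-type cells. IgG was 1.67 times its own background there. Relative to IgG, enrichment was 9.28-fold in E2f3-null cells (8.96 to 9.61) and 4.10-fold in wild-type cells (3.95 to 4.26). Reads of both H3K27me3 libraries were in excess of IgG at the peaks as a whole.

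Peak by peak, E2f3-null H3K27me3 exceeded IgG by at least 2-fold with an interval excluding 1 at 1821 null-only peaks (97.7%), where 45.9% of all merged regions met this criterion. Wild-type H3K27me3 did so at 559 (30.0%), against 89.1% of all merged regions. The fewest tags in any listed peak were 7 in E2f3-null and 8 in wild-type cells, and 448 null-only peaks (24%) held 8 or more wild-type H3K27me3 reads. Tags and reads were counted in different ways, so the 2 numbers are close but not the same measure.

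Over the null-only peaks the H3K27me3 ratio, E2f3-null over wild type, was 2.26 (2.21 to 2.32), from 17600 and 10444 reads. Its median was 1.21 on the log2 scale, with quartiles of 0.81 and 1.87. At 479 peaks (25.7%) the ratio was at least 2-fold higher in E2f3-null cells with an interval excluding 1, and at 0 it was as much lower. Over all merged regions 2.66% met the higher criterion and 41.2% the lower one, and nothing is read from this contrast since it chose the peaks. At 35 null-only peaks the scaled ratio was not above 1. With the median of the 3985 regions of both lists set to 1, the ratio was 4.58 and the share higher 86.4%, so the size of this difference rests on the scale chosen.

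**Figure D1:**
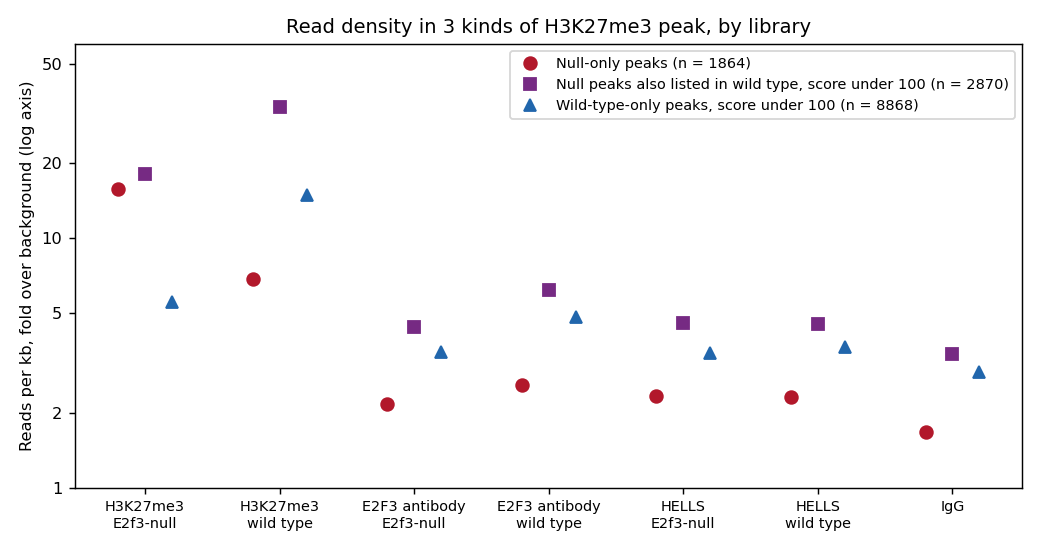
Read density over 3 kinds of H3K27me3 peak in each of the 7 libraries, as a multiple of that library's density outside peaks (log axis). Points are sums over all peaks of a kind, without error bars. At null-only peaks (red) H3K27me3 was 15.8 times background in E2f3-null cells and 6.86 times in wild-type cells, and the E2F3, HELLS and IgG libraries lay between 1.67 and 2.57, lower than at the other 2 kinds.

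Peaks at the edge of the rule show how fine it is. Of E2f3-null peaks that just missed being null-only, the one with the smallest overlap, chr5:35757752-35758087 (mm9), shared 2 bp with a wild-type peak and held 8 E2f3-null and 4 wild-type H3K27me3 reads. The peak at chr6:127721676-127722120 also shared 2 bp and held 11 and 7 reads. Just inside the rule, chr19:6501012-6501666 lay 4 bp from a wild-type peak and held 12 E2f3-null and 9 wild-type reads. At chr2:158492131-158492461, 5 bp away, they were 7 and 4, and at chr8:106695441-106696188, also 5 bp away, 13 and 13. Between the 5 members nearest a wild-type peak and the 5 non-members with the smallest overlap, the E2f3-null count exceeded or equalled the wild-type count in every case before scaling.

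Most null-only peaks lay beside wild-type H3K27me3. The median distance to the nearest wild-type peak was 1555 bp, with quartiles of 454 and 12459 bp. Within 1 kb of a wild-type peak were 767 (41.1%, 38.9 to 43.4), within 5 kb 1211 (65.0%, 62.8 to 67.1) and within 50 kb 1614 (86.6%, 85.0 to 88.1). Wild-type-only peaks, measured to the shorter list of E2f3-null peaks, were within 1 kb of one in 13.8% of cases and within 5 kb in 30.4%. The 2 distances are to lists of 16700 and 6958 peaks, so they are set side by side without comparison.

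Wild-type peaks next to null-only ones were strong. The 767 members within 1 kb had 734 different nearest wild-type peaks, with a median score of 152, against 85.1 for all wild-type peaks. In those 734 peaks the E2f3-null H3K27me3 library held 17048 reads and the wild-type one 54279, a ratio of 0.422 (0.415 to 0.429), against 0.398 over all wild-type peaks. The fall passed the criteria at 312 of them (42.5%), where 46.3% of all wild-type peaks passed. Of the 734, 347 (47.3%) also overlapped a listed E2f3-null peak, against 26.3% of all wild-type peaks. The neighbours thus fell about as much and as often as wild-type peaks in general, and nothing about the neighbours is read from these shares.

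Joined across gaps of up to 5 kb, the wild-type peaks formed domains, and 407 null-only peaks (21.8%) lay wholly inside one, in a gap between its peaks. In the domains formed by E2f3-null peaks, 797 null-only peaks (42.8%) were joined to a peak shared with wild type, 948 (50.9%) stood alone and 119 (6.38%) were joined to other null-only peaks alone. The domain with the most was chr11:96043608-96065046 (mm9), which held 6 null-only and 9 shared peaks. Single null-only peaks were about as many as those joined to others.

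The read profiles around the E2f3-null summits separated these settings. At the 1211 peaks within 5 kb of a wild-type peak, E2f3-null H3K27me3 was 15.2 times background within 0.2 kb of the summit and 6.75 times between 1 and 5 kb from it. Wild-type H3K27me3 was 7.06 times background at the same centres and 10.9 times in the flanks. Wild-type H3K27me3 was therefore lower at the E2f3-null summits than 1 to 5 kb away. In bins of 0.2 kb it was lowest at 0.3 kb from the summit, with 5.32 and 5.21 times background on the 2 sides, and 6.66 and 7.47 at the summit itself, a small summit of its own. The E2f3-null signal was highest at the summit, where the choice of peaks placed it. In the flanks the ratio, E2f3-null over wild type, was 0.605 (0.601 to 0.610) and at the centre 2.11 (2.05 to 2.18). By definition each peak of this class has a wild-type peak within 5 kb, so the wild-type densities around these summits are bound up with the class.

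Away from wild-type peaks the flanks had nearly equal densities in the 2 genotypes. By definition these flanks hold no listed wild-type H3K27me3 peak, which keeps their wild-type density low. The flank ratios are therefore a description bound up with the classes. At the 403 peaks between 5 and 50 kb from one, flank H3K27me3 was 2.74 times background in E2f3-null cells and 2.70 times in wild-type cells, with a ratio of 0.996 (0.973 to 1.02). At the 250 peaks beyond 50 kb these densities were 1.88 in E2f3-null cells and 1.75 in wild-type cells, with a ratio of 1.05 (1.01 to 1.09). At the centres of the 250 peaks, H3K27me3 was 14.3 times background in E2f3-null cells and 4.87 times in wild-type cells. Around shared peaks of score under 100 the centre ratio was 0.552 (0.545 to 0.560) and the flank ratio 0.583 (0.580 to 0.586), so centre and flank moved alike there.

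**Figure D2:**
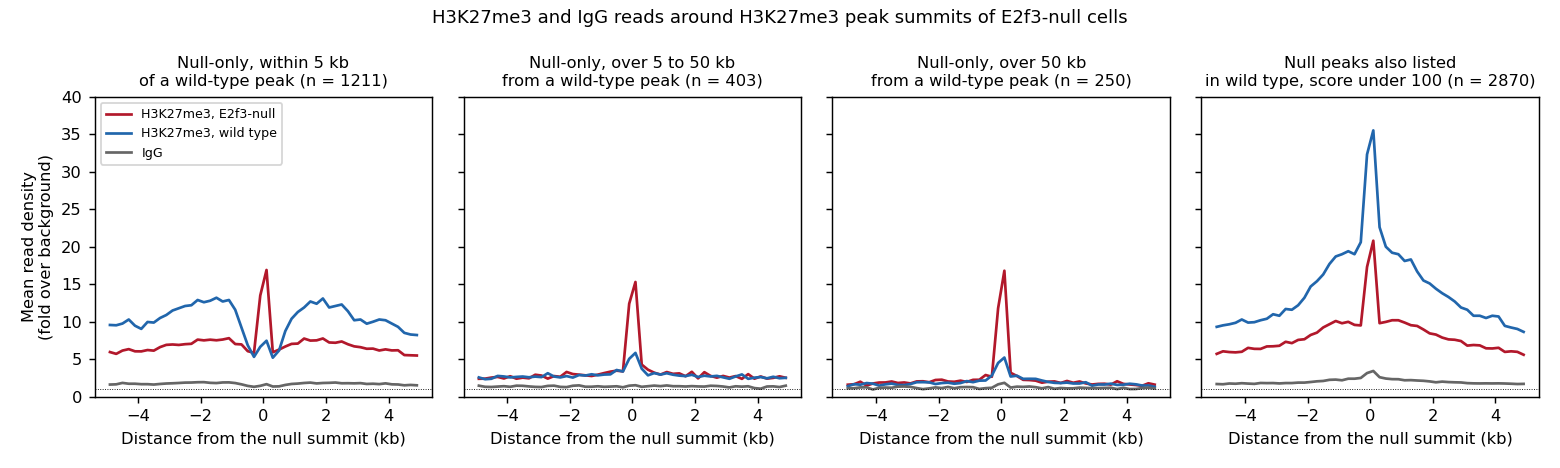
Mean H3K27me3 and IgG read density in 0.2 kb bins around E2f3-null H3K27me3 summits, as a multiple of background, for null-only peaks in 3 classes of distance and for shared peaks of score under 100. Curves are means over peaks of 1 library each, without error. Classes are set by distance to a wild-type peak, so wild-type flank densities are bound up with them. Within 5 kb of a wild-type peak the wild-type curve (blue) is lower around the null-only summit than in the flanks, with lows of 5.32 and 5.21 at 0.3 kb on either side and a small summit of 7.47 between them, and beyond 5 kb the 2 H3K27me3 curves overlie each other outside the summit.

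The H3K27me3 reads of wild-type cells also differed by distance to the nearest wild-type peak. That distance is to a list called from the same wild-type reads. The wild-type values and genotype ratios by distance are therefore a description. E2f3-null enrichment over IgG was 9.54-fold within 1 kb, 9.36-fold between 1 and 5 kb, 9.31-fold between 5 and 50 kb and 8.26-fold beyond 50 kb, and the intervals of the nearest (9.04 to 10.1) and the farthest class (up to 9.11) overlapped. Wild-type enrichment was 4.66-, 4.07-, 3.72- and 2.91-fold over the same classes. Without the 19 peaks on an E2F3 or HELLS list, described further on, the E2f3-null values were 9.53, 9.68, 9.90 and 10.6. The wild-type ones were then 4.65, 4.13, 3.79 and 3.08, so their order held. That of the E2f3-null values turned, but the intervals of the nearest (9.04 to 10.1) and farthest class (9.51 to 11.9) again overlapped. No order of the E2f3-null values is therefore read. Over all null-only peaks of these classes, the share with no wild-type read was 0.391%, 2.48%, 3.97% and 12%. Wild-type H3K27me3 exceeded IgG by the criteria at 40.9%, 30.4%, 19.6% and 12.4% of them, against 89.1% of all merged regions. The genotype ratio was 2.05 (1.98 to 2.12), 2.30 (2.18 to 2.42), 2.51 (2.37 to 2.65) and 2.84 (2.63 to 3.06) from near to far. Peaks higher by at least 2-fold with an interval excluding 1 were 140 (18.3%), 112 (25.2%), 113 (28.0%) and 114 (45.6%).

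E2F3 and HELLS, which the choice of peaks did not use, were sparse at null-only peaks. The E2F3 antibody gave a median of 1 read per peak in E2f3-null cells (quartiles 0 and 2, highest 39) and 1 in wild-type cells (quartiles 0 and 2, highest 182). HELLS gave a median of 2 in E2f3-null cells (quartiles 1 and 3, highest 75) and 2 in wild-type cells (quartiles 1 and 3, highest 61). IgG, whose deposited file held the most reads, gave 2 (quartiles 1 and 3, highest 29). At this depth a single peak seldom allowed a statement on either protein.

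Summed over the 1864 peaks, E2F3-antibody reads were 1.29-fold over IgG in E2f3-null cells (1.22 to 1.35) and 1.54-fold in wild-type cells (1.47 to 1.61). HELLS reads were 1.4-fold over IgG in E2f3-null cells and 1.4-fold in wild-type cells (1.33 to 1.46 in both). At shared peaks of score under 100, the E2F3 antibody stood 1.27-fold over IgG in E2f3-null cells and 1.81-fold in wild-type cells (1.77 to 1.85), and HELLS 1.32-fold in each. Relative to IgG, null-only peaks were thus poorer in wild-type E2F3 than shared peaks of like score, and not lower in HELLS.

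The E2F3-antibody reads numbered 2822 in E2f3-null cells and 3511 in wild-type cells, a ratio of 0.835 (0.795 to 0.878) that turned to 1.04 (0.991 to 1.10) with the median of regions of both H3K27me3 lists set to 1. At shared peaks of score under 100 it was 0.703 (0.687 to 0.719). No null-only peak was higher by the criteria and 12 (0.644%) were lower, against 0.369% and 5.12% of all merged regions. Fewer of the null-only peaks passed as lower than of all regions, at counts where few changes could pass.

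HELLS reads numbered 3810 in E2f3-null cells and 3782 in wild-type cells, a ratio of 1.00 (0.956 to 1.05). By the criteria 3 null-only peaks (0.161%) were higher and 5 (0.268%) lower, against 0.534% and 0.826% of all merged regions. HELLS reads over these peaks as a whole were nearly equal in the 2 libraries.

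Those 8 peaks each rested on few reads. At chr2:163148316-163149021 HELLS had 7 reads in E2f3-null and 0 in wild-type cells, where H3K27me3 had 15 and 31. HELLS was 2.32-fold higher there against a floor of 3 reads, and the interval of its ratio began at 1.43. At chr12:112648031-112648687 HELLS had 10 and 1, a ratio of 9.93 (1.41 to 431), with 13 and 12 H3K27me3 reads. In the other direction chr7:35468966-35469478 had 0 HELLS reads in E2f3-null and 6 in wild-type cells. This was 2.01-fold lower against the floor of 3 reads, and the interval of the ratio reached up to 0.843. H3K27me3 had 15 and 4 reads there, a ratio of 5.04 (1.60 to 20.8). The chr7 peak was the 1 peak whose H3K27me3 passed the criteria together with that of another antibody.

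The summed enrichment of E2F3 and HELLS over IgG was higher farther from wild-type H3K27me3, in part through a few peaks. With the E2F3 antibody, E2f3-null cells had 1.08, 1.25, 1.45 and 1.76 within 1 kb, to 5 kb, to 50 kb and beyond. Wild-type cells had 1.15, 1.44, 1.98 and 2.34 over these classes. HELLS had 1.21, 1.36, 1.54 and 1.84 in E2f3-null cells, and 1.21, 1.35, 1.61 and 1.75 in wild-type cells. IgG density itself was 1.65, 1.64, 1.59 and 1.96 times background in these classes. The median peak had 1 E2F3-antibody read in every class and either genotype, and 1 or 2 HELLS reads. Peaks on an E2F3 or HELLS list numbered 1, 2, 4 and 12 in these classes. Without them, an alternative chosen after seeing the data, E2F3-antibody enrichment was 1.08, 1.23, 1.37 and 1.56 in E2f3-null cells, and 1.14, 1.28, 1.5 and 1.51 in wild-type cells. HELLS then had 1.21, 1.30, 1.46 and 1.44 in E2f3-null cells, and 1.21, 1.32, 1.56 and 1.53 in wild-type cells. The wild-type E2F3 value beyond 50 kb was thus 1.51 (1.30 to 1.76) in place of 2.34. With or without the list peaks, the intervals of the 2 farthest classes overlapped in all 4 libraries. The E2F3-antibody ratio between genotypes was 0.945 (0.868 to 1.03), 0.867 (0.779 to 0.964), 0.736 (0.663 to 0.817) and 0.750 (0.669 to 0.840) with the list peaks, and 0.945, 0.962, 0.913 and 1.04 (0.887 to 1.21) without them.

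**Figure D3:**
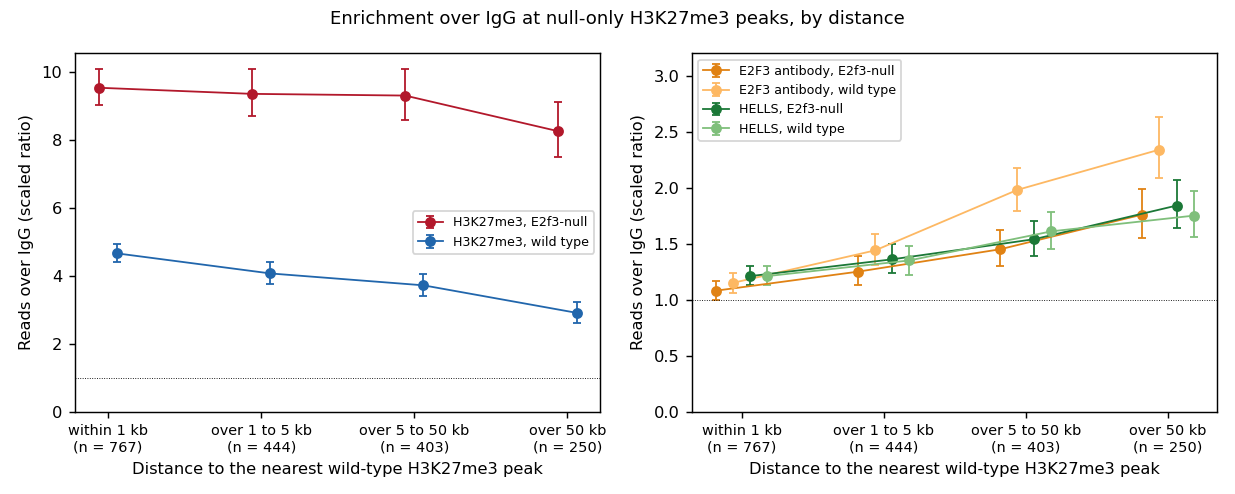
Enrichment over IgG at null-only peaks by distance to the nearest wild-type H3K27me3 peak, for H3K27me3 (left) and for the E2F3 antibody and HELLS (right). Points are scaled ratios of summed reads and bars are exact 95% intervals of counting error. Wild-type H3K27me3 enrichment is 4.66 within 1 kb and 2.91 beyond 50 kb, while that of the wild-type E2F3 antibody is 1.15 and 2.34, the second being 1.51 without the 12 peaks of that class on an E2F3 or HELLS list.

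Few null-only peaks lay on a listed E2F3 or HELLS peak. With at least 1 bp shared, 11 (0.590%, 0.295 to 1.05) lay on a peak that E2f3-null cells gave with the E2F3 antibody and 9 (0.483%, 0.221 to 0.915) on one in wild-type cells. For HELLS they were 15 (0.805%, 0.451 to 1.32) on the E2f3-null list and 5 (0.268%, 0.0872 to 0.625) on the wild-type list. On any of the 4 lists were 19 (1.02%). Of shared peaks of score under 100, which are longer with a median of 551 bp, 9.16% lay on a wild-type E2F3 peak and 12.3% on any list, and of wild-type-only peaks of score under 100, with a median of 440 bp, 4.92% and 5.92%.

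The null-only share was also lower within classes of score, which did not match the peaks in length. On any E2F3 or HELLS list were 0.550% of null-only peaks with a score under 60, 0.856% from 60 to 80, 1.97% from 80 to 100 and 4.90% at 100 or more. Of shared E2f3-null peaks in these classes the shares were 11.9%, 12.3%, 12.8% and 40.1%. In each class the null-only share was the lower one, and no test over libraries was possible. Null-only peaks were shorter in these classes, with a median of 396 bp against 468.5 bp for shared peaks under 60. At 100 or more the medians were 541 and 1078.5 bp, and the median scores 114 and 163. The part of length and score in the difference was not tested. By distance, 1, 2, 4 and 12 null-only peaks were on a list, from within 1 kb to beyond 50 kb. Of 799 E2F3-antibody peaks listed in E2f3-null cells alone, 6 null-only H3K27me3 peaks lay on one, and 3 lay on one of 631 HELLS peaks listed in E2f3-null cells alone and away from E2F3.

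**Figure D4:**
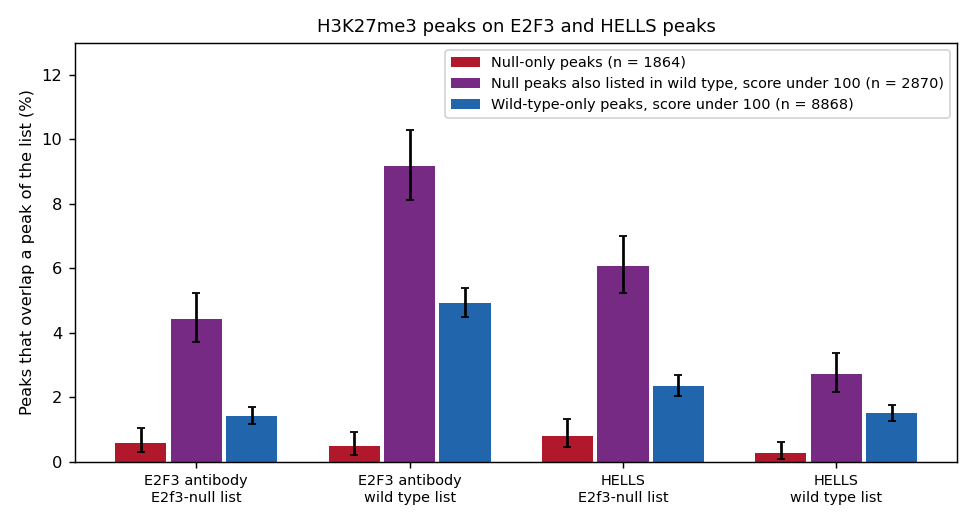
Share of H3K27me3 peaks that share at least 1 bp with a listed peak of the E2F3 antibody or HELLS, for null-only peaks, shared peaks and wild-type-only peaks, the last 2 with a score under 100. Bars are exact 95% Clopper-Pearson intervals. Null-only peaks have the lowest bar on each of the 4 lists, from 0.268% to 0.805%.

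The 19 null-only peaks on a list had other values than the rest. They held 322 H3K27me3 reads in E2f3-null cells and 444 in wild-type cells, a ratio of 0.974 (0.841 to 1.13), and at 10 of them the ratio was not above 1. Of the 19, 2 (10.5%) were higher by the criteria, against 25.7% of all null-only peaks and 2.66% of all merged regions. Over the other 1845 peaks the ratio was 2.32 (2.26 to 2.38). IgG density at the 19 was 8.44 times background, against 1.58 times at the other 1845, and H3K27me3 stood 2.58-fold over IgG in E2f3-null cells (2.18 to 3.06) and 2.65-fold in wild-type cells (2.26 to 3.11). The part of the high IgG signal in these values was not tested. Of the 19, 12 were more than 50 kb from a wild-type H3K27me3 peak, and 13 had a false discovery rate above 5% in the authors' deposited table.

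E2F3-antibody reads at the 19 numbered 318 in E2f3-null cells and 780 in wild-type cells, a ratio of 0.424 (0.371 to 0.483), and 8 of the 12 peaks that were lower for E2F3 were among them. Without these 19 peaks the E2F3-antibody ratio of the null-only peaks was 0.953 (0.902 to 1.01). On the scale of reads outside peaks, the lower E2F3 sum of the null-only peaks therefore rested largely on 19 of 1864. HELLS reads at the 19 numbered 485 in E2f3-null cells and 398 in wild-type cells, a ratio of 1.21 (1.06 to 1.39). Of the 19, 15 were on the E2f3-null HELLS list and 5 on the wild-type one, which favours a ratio above 1, and 11 and 9 were on the E2F3-antibody lists, so both ratios are a description. HELLS passed the criteria at 0 of the 19. Over all merged regions 0.534% were higher and 0.826% lower, so 0 of 19 is not read as a result.

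The 9 peaks on a wild-type E2F3 peak were all on the E2f3-null HELLS list too, and 2 null-only peaks were on all 4 lists. The strongest was chr11:102679927-102680742 (mm9), 40167 bp from the nearest wild-type H3K27me3 peak. It held 35 E2F3-antibody reads in E2f3-null cells and 182 in wild-type cells, a ratio of 0.2 (0.135 to 0.288). HELLS reads were 47 and 34, H3K27me3 reads 25 and 27, and IgG reads 17. E2F3-antibody reads were fewer in the E2f3-null library there beyond counting error, whereas H3K27me3 had a ratio of 1.24 (0.692 to 2.23).

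The next peak by wild-type E2F3 reads, chr7:106616698-106617438, had 39 in E2f3-null and 112 in wild-type cells, a ratio of 0.362 (0.245 to 0.525). It had the most HELLS reads of any null-only peak, 75 in E2f3-null and 61 in wild-type cells, and the most E2f3-null H3K27me3 reads, 36 against 55 in wild-type cells. IgG had 29 reads at this place, the highest of the null-only peaks. The 3 that followed were chr11:106888933-106889609 with 15 E2F3-antibody reads in E2f3-null and 69 in wild-type cells, chr12:113145634-113146345 with 33 and 65, and chr9:31839829-31840351 with 16 and 54. All 5 were named for their many wild-type E2F3 reads, which favours a lower E2f3-null count, so the E2F3 values are a description. Their H3K27me3 ratios were between 0.879 and 1.24 with intervals that include 1.

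All 9 lay on a wild-type E2F3 peak by choice and 5 on one of E2f3-null cells, while all 9 were on the E2f3-null HELLS list and 4 on the wild-type one. Their E2F3 and HELLS ratios are therefore bound up with the lists that single them out, and are given as a description. Over the 9 peaks together the H3K27me3 ratio was 0.955 (0.789 to 1.15), that of the E2F3 antibody 0.364 (0.311 to 0.426) and that of HELLS 1.25 (1.06 to 1.46). Wild-type H3K27me3 was enriched over IgG by the criteria at each of the 9, with 21 to 55 reads. E2f3-null counts there ranged from 11 to 36. These 9 peaks were null-only by the lists, while their summed H3K27me3 ratio was not above 1 beyond counting error. Peak by peak, the scaled ratio was not above 1 at 6 of the 9.

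A second small set was set apart by shape. It was singled out after its values were seen: 15 null-only peaks were at most 160 bp long, between 144 and 159 bp, and in every one all E2f3-null H3K27me3 reads lay on a single strand. Their median score was 147, all had a false discovery rate of at most 5%, and 8 of the 20 highest-scoring null-only peaks were among them. They held 123 H3K27me3 reads in E2f3-null cells and 14 in wild-type cells, a ratio of 11.8 (6.77 to 22.2), and 14 were higher by the criteria. Wild-type H3K27me3 stood at 0.687 times IgG there (0.337 to 1.34). It exceeded IgG by the criteria at 0 of the 15, against 89.1% of all merged regions. All but 1 of the 15 were more than 50 kb from a wild-type H3K27me3 peak.

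Examples were among the highest scores of the whole list. At chr11:77882929-77883083 there were 11 H3K27me3 reads in E2f3-null and 0 in wild-type cells, with 1 IgG read. This was 4.92-fold higher against the floor of 3 reads, and the interval of the ratio began at 3.37. At chr13:105436882-105437027 the H3K27me3 reads were 8 and 0, 3.58-fold higher against the floor, with an interval from 2.29. At chr12:116208981-116209129 they were 12 and 0, 5.37-fold higher against the floor, with an interval from 3.73 and 7 IgG reads. The peak farthest from any wild-type H3K27me3, chr16:48856445-48856592 at 3201916 bp, was also of this kind, with 7 reads in E2f3-null and 0 in wild-type cells. Each of the 15 held between 7 and 12 E2f3-null H3K27me3 reads, and why these lay on 1 strand was not tested.

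Over the 15, IgG density was 4.78 times background, and the E2F3 antibody had 40 reads in E2f3-null cells and 19 in wild-type cells, a ratio of 2.19 (1.24 to 4). HELLS had 28 reads in E2f3-null cells and 21 in wild-type cells, a ratio of 1.32 (0.725 to 2.45). Reads on 1 strand alone were found at 45 null-only peaks in all (2.41%, 1.77 to 3.22), against 0.662% of shared peaks of score under 100, which held a median of 13 reads where null-only peaks held 8. By distance the shares were 1.17%, 1.58%, 1.99% and 8.40% (5.27 to 12.6) from near to far. The last share stands for 21 of 250 peaks, and 14 of these 21 were narrow ones. Without the 15 narrow peaks, the 236 null-only peaks beyond 50 kb had an H3K27me3 ratio of 2.72 (2.52 to 2.93), against 2.84 with them.

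**Figure D5:**
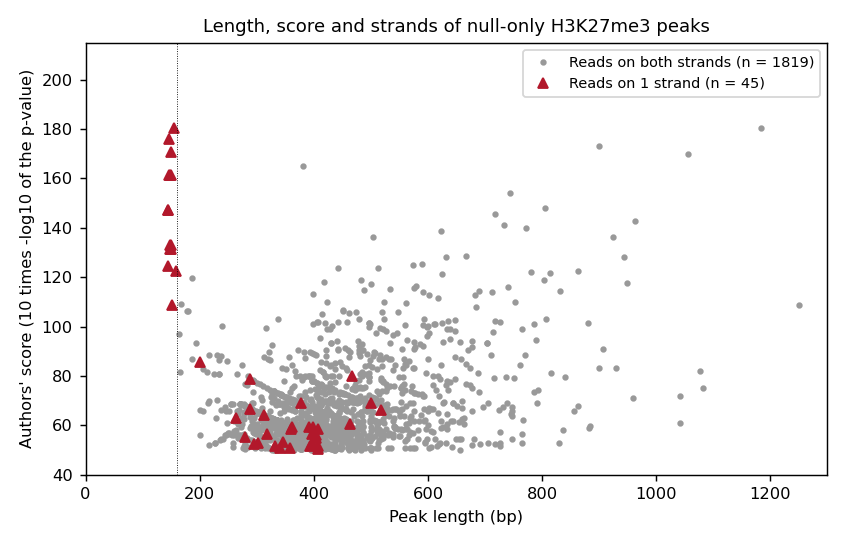
Length and authors' score of the 1864 null-only peaks, with those whose E2f3-null H3K27me3 reads were all on 1 strand as red triangles (n = 45). The dotted line marks 160 bp. The 15 peaks left of it are all triangles and reach scores of 180.25, while most other peaks score between 50 and 80 at lengths of 200 to 600 bp.

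The highest-scoring null-only peak with reads on both strands was chr17:86003867-86005049 (mm9), 1183 bp long and 672 bp from a wild-type peak, with a score of 180.6. It held 28 H3K27me3 reads in E2f3-null and 19 in wild-type cells, a ratio of 1.98 (1.07 to 3.75), and 7 IgG reads. At chr11:3676668-3677566, 1353 bp from a wild-type peak, they were 24 and 15, a ratio of 2.15 (1.08 to 4.41), with 1 IgG read. The E2F3 antibody had 3 reads in each genotype at the first of these peaks, and 3 in E2f3-null and 2 in wild-type cells at the other. These 2 high-scoring peaks outside the narrow class were thus long and also held wild-type reads, and nothing general is read from 2 peaks.

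Among wider peaks, chr5:89886632-89887055 held 10 H3K27me3 reads in E2f3-null and 0 in wild-type cells, at 68803 bp from the nearest wild-type peak. This was 4.48-fold higher against the floor of 3 reads, and the interval of the ratio began at 3.01. The counts were also 10 and 0 at chr8:123533402-123533868, at 4059 bp. IgG had 1 read at each. E2F3 and HELLS had at most 2 reads in any library at these 2 peaks, which is within the floor of 3 reads.

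The 479 null-only peaks whose H3K27me3 was higher by the criteria held 4638 reads in E2f3-null cells and 1135 in wild-type cells. Wild-type H3K27me3 was 1.94-fold over IgG there (1.78 to 2.13), and IgG was 1.49 times background. The E2F3-antibody ratio at these peaks was 1.02 (0.916 to 1.14) and the HELLS ratio 1.07 (0.976 to 1.18). No E2F3 change passed at any of them, where 0.369% of all merged regions were higher and 5.12% lower. The median was 1 E2F3-antibody read in each genotype, and at such counts few changes could pass. Of the 479, 1 (0.209%) had lower HELLS by the criteria, against 0.826% of all merged regions. On an E2F3 or HELLS list were 2 (0.418%), against 1.02% of all null-only peaks. On the scale of reads outside peaks, these 479 thus showed no E2F3 or HELLS difference beyond counting error in the sum. With the median of regions of both H3K27me3 lists set to 1, the E2F3-antibody ratio of all null-only peaks moved from 0.835 to 1.04. The ratio of the 479 was not computed on that scale, so the E2F3 statement holds for the first scale only.

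Null-only peaks were found on every autosome, from 40 on chromosome 16 to 197 on chromosome 2. They made up between 21.6% (chromosome 10) and 32.9% (chromosome 18) of the E2f3-null peaks of a chromosome. The H3K27me3 ratio was above 1 on all 19, between 1.95 (1.68 to 2.26) on chromosome 18 and 2.69 on chromosomes 6 and 17. The E2F3-antibody ratio was lowest on chromosome 11 with 0.508 (0.437 to 0.589), which holds the 2 null-only peaks with 182 and 69 wild-type E2F3 reads, and highest on chromosome 17 with 1.31 (0.969 to 1.78). The HELLS ratio was between 0.743 (0.573 to 0.961) on chromosome 13 and 1.38 (1.10 to 1.74) on chromosome 10.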

How the data were processed

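ChIP-seq libraries of E2f3-null and wild-type fibroblasts, 1 per antibody and genotype, were grouped by the genotype and antibody in the labels. The deposited files list single-end reads, of which 36 nucleotides were sequenced per the labels, aligned to mm9, which the submitters' processing notes name as the build, and the aligner is not given in the sources used here. The authors called peaks per library with MACS 1.4.0beta at a p cutoff of 1e-05, per the file headers, against controls of 3791438 tags for E2f3-null and 3444066 for wild-type cells. The 2 deposited IgG read files are identical and were used as 1 background library. The file held 7223444 reads, more than either control, and how it relates to the 2 controls was not settled. Per peak, the deposited tables give the tag count, a score (the negative log10 of the p-value, times 10), a fold enrichment as a ratio, and a false discovery rate in percent, and these served only to describe or filter peaks.

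From the deposited reads, 1 read per position and strand was counted after a shift of 60 bp. Scaling used the reads lying outside the 27092 merged peak regions of all antibodies (21.5 Mb). Regions were called at 2-fold or more with an exact conditional binomial 95% interval excluding 1, over 18149 merged H3K27me3 regions on chromosomes 1 to 19. Each count had 0.5 added before a log2 ratio. Intervals of shares are Clopper-Pearson ones. A fold against 0 reads was computed against a floor of 3 reads per library, so it is not the limit of the interval. Distances are from the nearest edges of peaks. The calling step was tested on simulated counts.

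The null-only peaks, their classes, the alternatives and the rule for named regions were chosen with earlier results of these data known. Named were up to 5 null-only peaks each by score, by H3K27me3 ratio, by wild-type E2F3 and E2f3-null HELLS reads, by HELLS rise and fall and by distance, and those at the edge of the overlap rule. Sequences and gene names are not given, since no mm9 genome or annotation was used here. Analyses used Python 3.11.15, numpy 2.4.6, scipy 1.17.1, pandas 2.3.3 and matplotlib 3.10.9.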

Additional observations from a re-analysis of the deposited data

How the results depend on the processing

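Of 110 recomputed values for 14 results, 69 stayed within a set range. This range was the counting interval or, for counts, a move of less than 1.5 times. For the median distance to the nearest wild-type peak it was the quartiles across peaks, 454 and 12459 bp. That median was 1555 bp, but 838 bp at a score of 100 or more and 782 bp at a false discovery rate of 5% or less. It was 1520 bp without peaks of 160 bp or less, and also without those on an E2F3 or HELLS list. All these distances are among the 69, although 838 and 782 bp are well below 1555 bp. Scaling by all distinct reads gave an H3K27me3 ratio of 2.5, a higher share of 30.0%, an E2F3-antibody ratio of 0.892 and a wild-type H3K27me3 enrichment of 3.56. Setting the median of regions of both lists to 1 gave 4.58 and 86.4%, and the E2F3-antibody ratio reversed to 1.04. Background reads of the same chromosome gave an H3K27me3 ratio of 2.32. Windows of 500 bp at the summit gave 2.10, a share of 21.0%, an E2F3-antibody ratio of 0.886 and an IgG density of 1.53.

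At a score of 100 or more, 102 peaks were left, with an H3K27me3 share of 44.1%, a HELLS ratio of 1.11, a HELLS share of 0.980%, an IgG density of 2.02 and a wild-type H3K27me3 enrichment of 4.35. Of them 3.92% lay on an E2F3-antibody peak of E2f3-null cells and 1.96% of wild-type cells, and 3.92% and 0.980% on HELLS peaks of E2f3-null and wild-type cells. At a false discovery rate of 5% or less the number was 122, with 45.9%, an IgG density of 1.96, an enrichment of 4.30, and 3.28% and 1.64% for both antibodies on the E2f3-null and wild-type lists.

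More than 1 kb from every wild-type peak were 1097 peaks, with an H3K27me3 ratio of 2.47, a share of 30.9%, an E2F3-antibody ratio of 0.783, a wild-type enrichment of 3.67 and 1.37% on E2f3-null HELLS peaks. Requiring instead that no wild-type summit lay within 250 bp gave 4036 peaks. Without the 19 peaks on an E2F3 or HELLS list, chosen after seeing the data, the H3K27me3 ratio was 2.32, the E2F3-antibody ratio 0.953, its lower share 0.217% and IgG density 1.58. The cause of these moves was not tested beyond the smaller sets of peaks themselves.

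No paired analysis was possible because each group had 1 library. The number of reads per peak, with a median of 8 or fewer in every library, limits statements on single peaks.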

Other observations

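On chromosome X, which the choice of peaks left out, 51 of the 121 H3K27me3 peaks listed in E2f3-null cells shared no base with a wild-type peak. They were counted only.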
